A study of Mus musculus with 4 samples.

Results

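Chromatin accessibility was examined at 7 immediate early response genes, Egr1, Egr2, Egr3, Csrnp1, Arc, Ier3 and Phlda1. The macrophages were either treated with methyl-β-cyclodextrin (MCD), which extracts cholesterol, or left without it. The members were chosen by a nearest-gene rule from the authors' deposited table of differentially accessible regions. A row was a member where the closest transcription start site (TSS) was that of 1 of these genes, counting GENCODE M21 (GRCm38) transcripts that carry an Entrez identifier. This rule found 12 of the 3812 intervals listed, at 6 of the 7 genes, and Egr1 had none. Of the 20886 genes with a protein-coding transcript, 11.8% had a listed interval by this rule. The 7 genes were chosen with these data known, so their count was not tested against that share. After treatment the mean was higher than in control (gained) in 11 of the 12 intervals and lower (lost) in 1, which lies upstream of Egr3. Of all the intervals listed, 73.2% were gained and 26.8% were lost. The ratio of the means, MCD over control, ran from 1.54 at the promoter of Arc to 12.1 downstream of Phlda1 in the gained intervals, and was 0.700 in the lost one.

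The assay was ATAC-seq, in which the Tn5 transposase cuts open chromatin, so that a more accessible site collects more reads. The cells, of the RAW line of mouse macrophages (the labels write RAW 267.4, with digits of the usual name transposed), were grown in DMEM with FCS and either left without treatment (control, n = 2 samples) or treated for 1 hr with 5 mM methyl-β-cyclodextrin (MCD) in medium with BSA (n = 2 samples). MCD is a ring of sugars that extracts cholesterol from membranes. The study's general methods describe water as the control, given in the same BSA medium, while the labels and the ATAC-seq methods call control cells untreated. No cholesterol value of these samples was used. MCD itself and cholesterol loss cannot be told apart here, nor can the change of medium if control cells stayed in FCS. The labels do not say whether the 2 samples of a condition came from separate cultures. The authors' values used here are, for each condition, a single log2 mean of its normalized reads, for intervals of 201 bp, so no spread between replicates and no depth per sample can be given. The rows of the table were selected on the difference between MCD and control, and the genes were chosen with these means known, so the differences below are a description and were not tested. Macrophage marker genes could not be checked in a list of changed intervals alone.

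Immediate early genes are the genes a cell transcribes within minutes of a stimulus, without first making new protein. They are switched on by factors already present in the cell, such as SRF with its ETS partners at the CArG box, CREB at the CRE and NF-κB at the κB site, and many of their products are transcription factors that drive the next set of genes. In macrophages, growth factors, stress and microbial products all induce them. Egr1, Egr2 and Egr3 are zinc finger transcription factors, Csrnp1 is a nuclear protein with a transactivation domain, Arc is a cytoskeleton-associated protein best known from synapses, Ier3 is a stress-induced regulator of cell survival, and Phlda1 is a small protein with a pleckstrin homology-like domain.

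The reference sequences of 7 of the 12 intervals are printed. These are the most gained interval, the only one within 1 kb of a TSS, and the gained ones that hold a motif marked below. The sequences are the plus strand of GRCm38, and the distance is that to the nearest TSS of the gene named. Capitals mark matches on either strand to AP-1 (TGANTCA, bound by Jun and Fos), the CRE (TGACGTCA), the κB site or the EGR site (GCGNGGGCG). A sequence with no capitals holds none of these 4 motifs.
Phlda1, 2467 bp downstream, chr10:111510163-111510363: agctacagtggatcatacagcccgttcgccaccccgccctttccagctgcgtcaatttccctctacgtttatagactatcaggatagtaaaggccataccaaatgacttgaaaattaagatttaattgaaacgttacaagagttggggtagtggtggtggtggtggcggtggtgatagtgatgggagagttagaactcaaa
Egr2, 11163 bp upstream, chr10:67524112-67524312: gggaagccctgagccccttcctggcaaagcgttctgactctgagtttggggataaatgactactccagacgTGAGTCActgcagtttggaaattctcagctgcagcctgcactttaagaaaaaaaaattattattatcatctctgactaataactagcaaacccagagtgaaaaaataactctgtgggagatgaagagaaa
Egr2, 41661 bp upstream, chr10:67493614-67493814: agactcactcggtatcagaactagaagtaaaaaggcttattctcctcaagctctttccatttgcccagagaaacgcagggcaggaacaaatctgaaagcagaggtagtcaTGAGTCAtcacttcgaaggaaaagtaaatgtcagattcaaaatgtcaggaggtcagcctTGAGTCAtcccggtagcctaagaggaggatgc
Ier3, 49808 bp upstream, chr17:35771676-35771876: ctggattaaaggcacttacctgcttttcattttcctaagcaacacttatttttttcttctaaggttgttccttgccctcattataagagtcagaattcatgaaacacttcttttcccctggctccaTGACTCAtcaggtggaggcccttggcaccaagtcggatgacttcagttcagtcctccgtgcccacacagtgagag
Ier3, 44568 bp upstream, chr17:35776916-35777116: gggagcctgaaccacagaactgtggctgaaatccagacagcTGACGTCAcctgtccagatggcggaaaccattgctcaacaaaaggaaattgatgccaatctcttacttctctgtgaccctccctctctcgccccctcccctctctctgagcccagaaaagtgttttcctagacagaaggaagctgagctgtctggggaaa
Egr3, 82072 bp upstream, chr14:69994931-69995131: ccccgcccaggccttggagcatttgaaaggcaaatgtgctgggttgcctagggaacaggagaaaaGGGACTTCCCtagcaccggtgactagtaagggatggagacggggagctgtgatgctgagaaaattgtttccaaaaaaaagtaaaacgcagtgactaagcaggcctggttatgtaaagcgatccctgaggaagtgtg
Arc, 59 bp upstream, chr15:74672629-74672829: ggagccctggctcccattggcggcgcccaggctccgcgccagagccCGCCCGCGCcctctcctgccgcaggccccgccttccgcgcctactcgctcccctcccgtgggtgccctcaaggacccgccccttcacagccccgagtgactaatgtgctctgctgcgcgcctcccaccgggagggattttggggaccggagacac

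The 12 intervals fell into a low and a high range of control accessibility, with no interval between a control mean of 26.0 and 59.4 normalized reads. The 6 in the low range had control means from 8.83 to 26.0 and MCD means from 41.5 to 107. All 6 were gained, with ratios from 2.46 to 12.1. Of all listed intervals with a control mean under 50 reads, 96.3% were gained. The 6 in the high range had control means from 59.4 to 283, and their MCD means ran from 108 to 263. Of these, 5 were gained, with ratios from 1.54 to 1.81, and 1 was lost. Of all listed intervals with a control mean of 50 reads or more, 46.5% were gained. A difference of at least 1 on the log2 scale, set as a size and not as a test, was reached by 6 of the 12 intervals, against 57.3% of all the intervals listed. The median difference of the 12 was 1.08 on the log2 scale, and that of all listed intervals was 1.14. By position, 3 of the 12 (25.0%) lie within 3 kb of the TSS, those of Arc and Csrnp1 and the nearer one of Phlda1, against 16.9% of all listed intervals. Intergenic sequence, meaning outside any annotated transcript, held 9 of the 12 (75.0%), against 40.8% of all. These counts overlap, since the Arc interval and the nearer one of Phlda1 are in both.

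**Figure D1:**
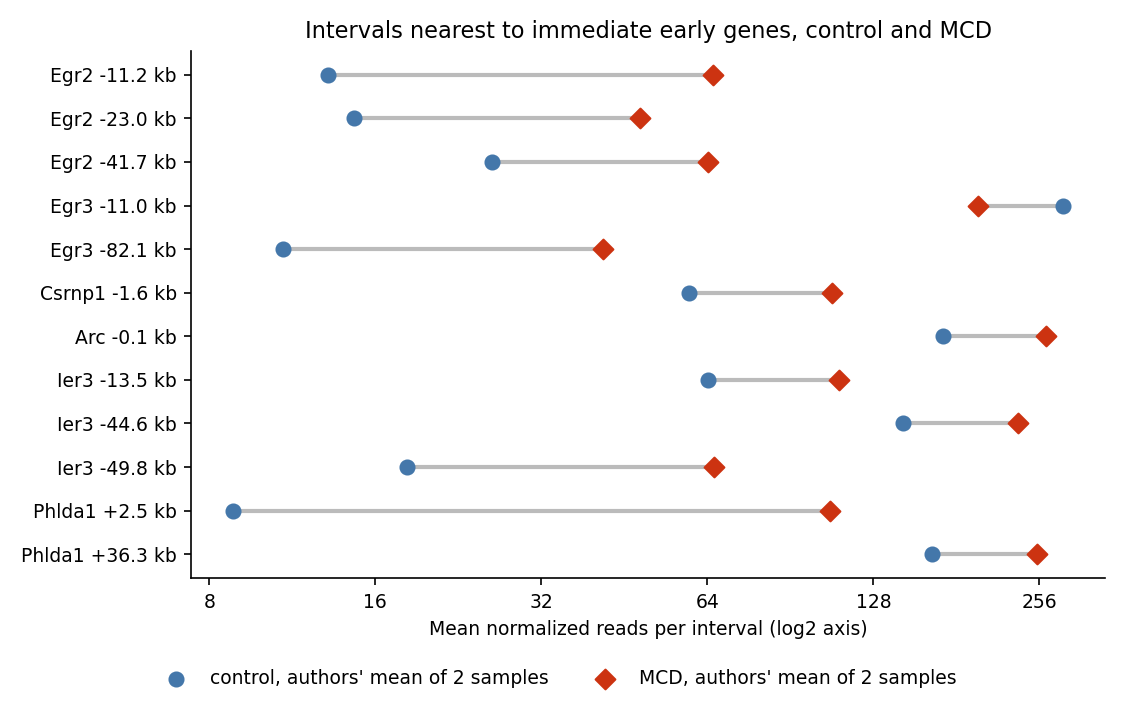
Mean normalized reads of the 12 intervals in control (circles) and after MCD (diamonds), on a log2 axis, each the authors' mean of 2 samples and with no error bar because values per sample were not used. Intervals are named by gene and by distance to its nearest TSS, minus for upstream. The 6 intervals that start between 8.83 and 26.0 reads move farther than the others, and the Egr3 interval 11.0 kb upstream is the 1 that moves down.

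The range of control accessibility also bounds the size of difference that the list can hold. Among all the gained intervals listed, those with a control mean under 50 reads differed by at least 0.90 on the log2 scale, and those with 50 reads or more by as little as 0.49. The median differences of these sets were 1.62 and 0.89, against 1.89 and 0.70 for the gained members in the same ranges. The control mean enters both quantities. The plot of all listed intervals shows this as 2 bands on either side of equal means, with most members inside the upper band.

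**Figure D2:**
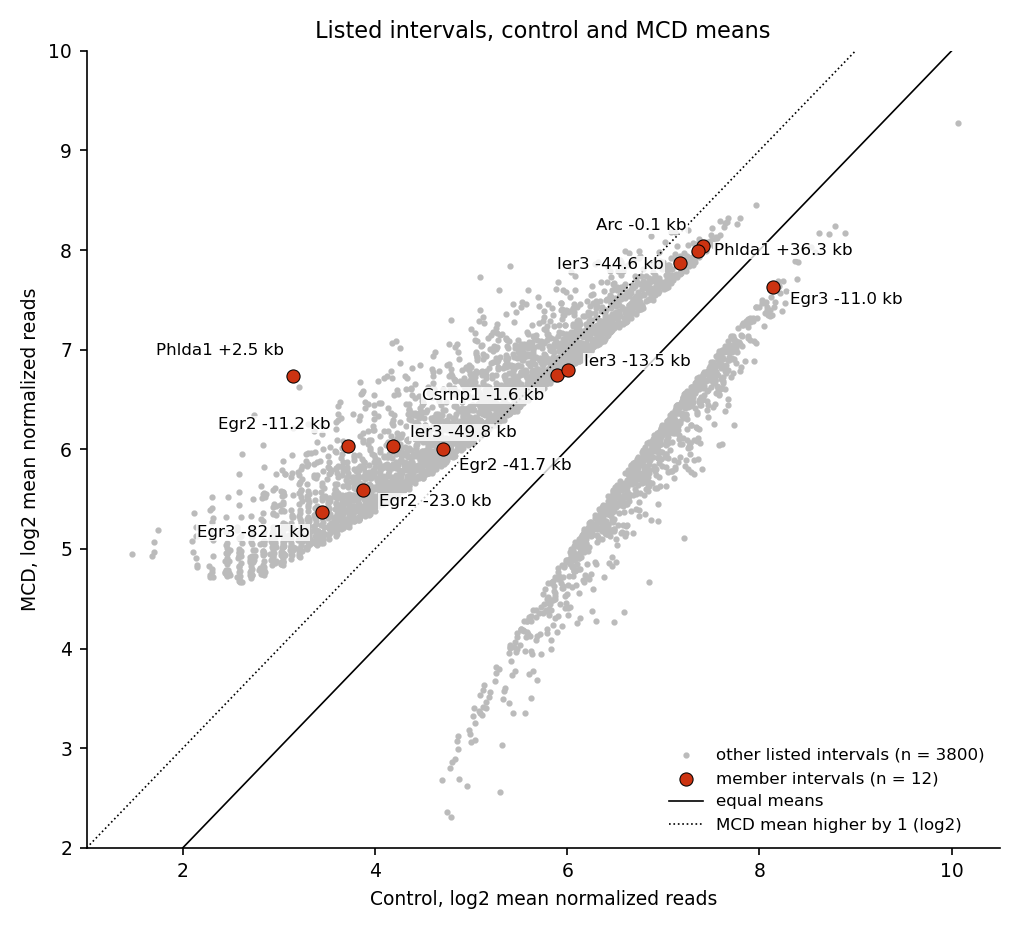
Log2 mean normalized reads in control (x axis) and after MCD (y axis) for the 12 member intervals (red) and the 3800 other listed intervals (grey). Of the members, Phlda1 +2.5 kb lies farthest above the line of equal means, 3.60 above it on the log2 scale, and Egr3 -11.0 kb lies below it.

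Egr2 (ENSMUSG00000037868.15; chromosome 10, 67535475 to 67542188, plus strand), which encodes a zinc finger factor of macrophages and Schwann cells, had 3 gained intervals and no lost one. All 3 lie upstream of the gene, in intergenic sequence. The nearest, 11163 bp from the TSS, had 13.1 normalized reads in control and 65.5 after MCD, a log2 difference of 2.32. The middle one, at 67512315 to 67512515 and 22960 bp from the TSS, had 14.6 reads in control and 48.3 after MCD, a difference of 1.72. The farthest, 41661 bp away, had 26.0 and 64.2 reads, a difference of 1.30. The order of the differences followed the distance from the gene, but with 1 mean per condition it is not known whether neighbours in this order differ beyond their spread. The next listed interval outside the rule is 94556 bp from an Egr2 TSS, nearest to Ado, and was also gained (log2 difference 1.54). In all, 7 listed intervals lie within 150 kb of Egr2, a distance chosen after the values were seen, and all 7 were gained.

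Egr3 (ENSMUSG00000033730.4; chromosome 14, 70077203 to 70082614, plus strand), a relative of Egr2 with the same type of DNA-binding domain, had 2 intervals that moved in opposite directions. The interval 10985 bp upstream is intergenic and was the most accessible member in control, with 283 normalized reads, above 99.4% of all listed intervals. After MCD it had 198 reads, a log2 difference of -0.51. The smallest loss in the whole list was a difference of -0.44, so this one is among the mildest. The other interval is 82072 bp upstream, the farthest from its gene of all members, within intron 4 of Pebp4. It had 10.9 reads in control and 41.5 after MCD, a difference of 1.93. On the other side of Egr3, a listed interval 28123 bp from its TSS is nearer to Bin3, and was gained, with 59.7 reads in control and 204 after MCD.

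Csrnp1 (ENSMUSG00000032515.8; chromosome 9, 119971163 to 119984658, minus strand) had 1 interval, from 119978894 to 119979094. It lies in intron 1 of a coding transcript of 5 exons, 5564 bp downstream of the most upstream TSS, and 1559 bp upstream of the start of a shorter coding transcript. A transcript of the neighbouring chemokine receptor gene Cx3cr1 also spans it, in intron 2. Its mean was 59.4 reads in control and 108 after MCD, a log2 difference of 0.86. A stronger difference lay just outside the rule. An interval 7988 bp from a Csrnp1 TSS, but 7529 bp from that of Ttc21a, had 17.1 reads in control and 105 after MCD, a log2 difference of 2.62 that ranked 77 of 3812. Within 150 kb of Csrnp1, 5 of 8 listed intervals were gained, and these lie nearest to the gene. The 3 lost ones are farther off, all upstream and nearest to Xirp1 or Cx3cr1, with log2 differences from -0.92 to -0.57.

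Arc (ENSMUSG00000022602.14; chromosome 15, 74669083 to 74672570, minus strand) had 1 interval, whose near edge is 59 bp upstream of the TSS. It was the only member within 1 kb of a TSS. It was open in both conditions, with 171 reads in control and 263 after MCD, a log2 difference of 0.62. After MCD it was more accessible than 99.0% of all listed intervals, and it had the highest MCD mean of the 12. Its sequence is also unlike that of the other members, with a G+C content of 73.1% and 19 CpG dinucleotides, where the medians over all listed intervals were 47.8% and 2. Of the neighbouring listed intervals, both nearest to Mroh4, 1 was gained and 1 was lost.

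Ier3 (ENSMUSG00000003541.6; chromosome 17, 35821684 to 35822923, plus strand) had 3 gained intervals, all upstream. The nearest, at 35808020 to 35808220 and 13464 bp from the TSS, is intergenic and had 64.2 reads in control and 111 after MCD, a log2 difference of 0.79. The interval 44568 bp upstream overlaps an exon of the transcript 4833427F10Rik. It was already open in control, with 145 reads, and had 234 after MCD, a difference of 0.70. The interval 49808 bp upstream was low in control, with 18.2 reads, and had 65.7 after MCD, a difference of 1.85. Of these neighbours, the one that was low in control had the larger difference. All 6 listed intervals within 150 kb of Ier3 were gained. The 3 that are not members are nearest to Ddr1, and the strongest of them had 7.04 reads in control and 49.7 after MCD.

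Phlda1 (ENSMUSG00000020205.8; chromosome 10, 111506286 to 111508645, plus strand) had the most gained member. This interval lies in intergenic sequence 1518 bp past the end of the gene, 2467 bp downstream of the TSS of a noncoding transcript and 3877 bp downstream of that of the coding transcript. It was nearly closed in control, with 8.83 normalized reads, and had 107 after MCD, a ratio of 12.1. Its log2 difference of 3.60 ranked 2 of 3812. The ratio rests on a low control mean, and with 5 reads added to both means the log2 difference was 3.02. The other Phlda1 interval, at 111543979 to 111544179 and 36283 bp downstream, was open from the start. It had 164 reads in control and 254 after MCD, a difference of 0.63. Beyond it, starting 47760 bp from a Phlda1 TSS, follow 5 more gained intervals within 150 kb, nearest to the noncoding gene 4933440J02Rik, with log2 differences from 1.34 to 2.13. With an interval near Nap1l1 on the other side, all 8 listed intervals within 150 kb of Phlda1 were gained.

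**Figure D3:**
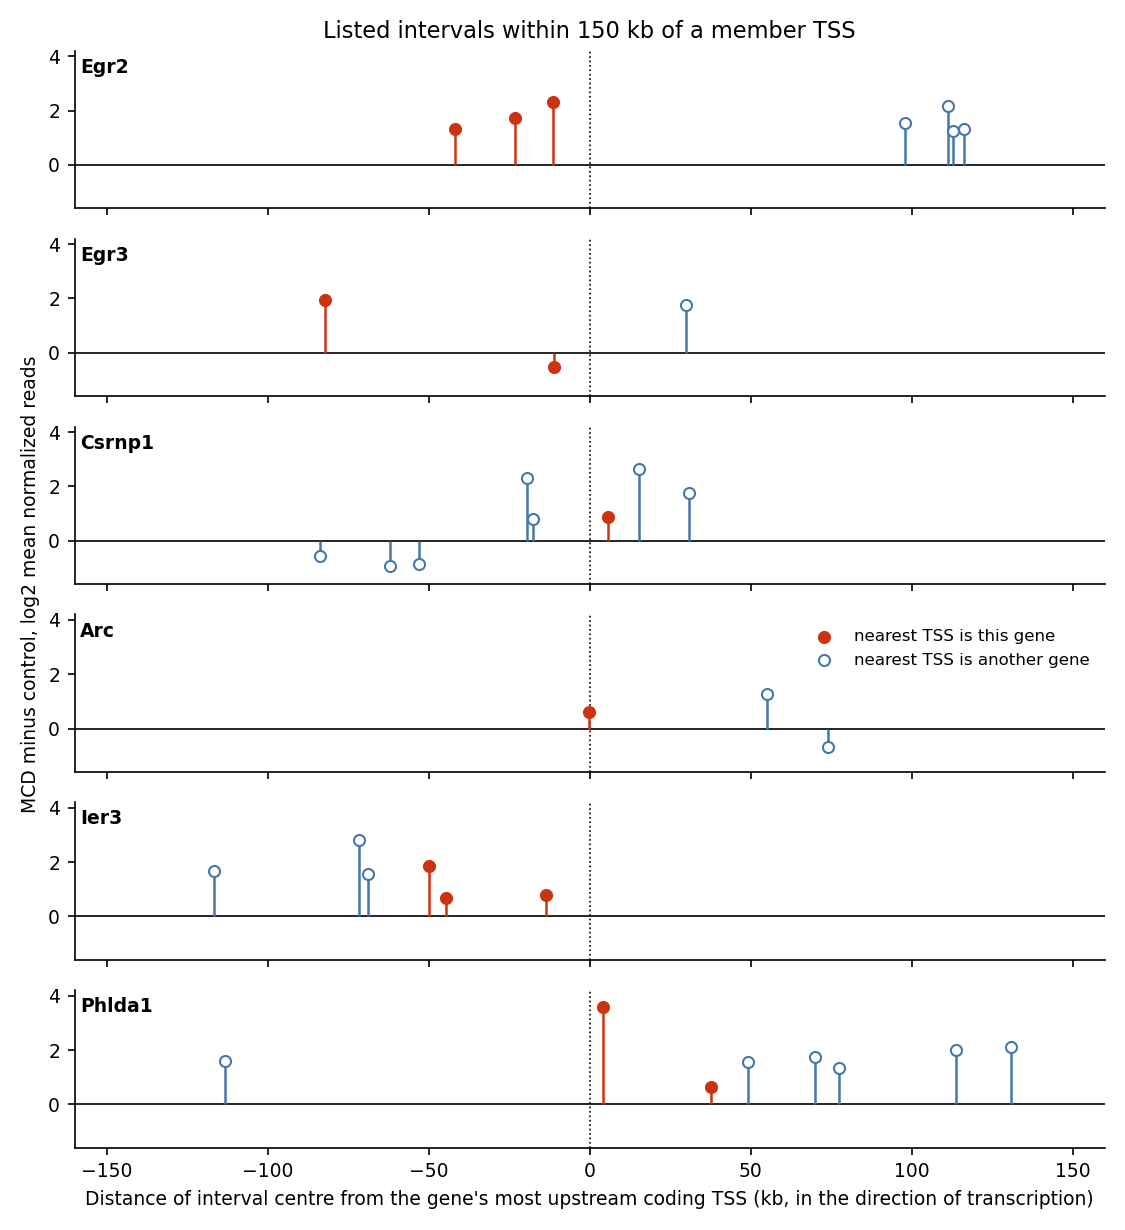
Difference of the means (MCD minus control, log2 normalized reads, y axis) of every listed interval within 150 kb of a member gene against its distance from the gene's most upstream coding TSS (kb, x axis, positive in the direction of transcription). Filled points are members and open points have another nearest gene. All listed intervals around Egr2, Ier3 and Phlda1 lie above 0, while those around Egr3, Csrnp1 and Arc lie on both sides.

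Around the 6 genes, the windows of 150 kb held 35 listed intervals, of which 30 were gained (85.7%, against 73.2% of the whole list) and 5 were lost. Of these, 12 are the members, and of the 23 others 19 were gained (82.6%). The intervals of a window are neighbours on 1 chromosome and not independent of each other.

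Egr1 (ENSMUSG00000038418.7; chromosome 18, 34859823 to 34864984, plus strand), the founding member of the EGR family, had no row. The nearest listed interval is 153387 bp away. It is nearest to Gfra3 and was lost, with log2 means of 6.95 in control and 6.12 after MCD. Since the table holds changed intervals alone, the accessibility of Egr1 itself is not known from it, and the lack of a row does not show that it was unchanged.

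Motifs of 8 kinds were searched in all listed intervals on both strands, and matches are described without a test. For AP-1, all 12 members were compared with all listed intervals of the same length. For the other motifs, counts are given over the 11 gained members alone. The lost Egr3 interval is left out of those counts, so they do not show that it lacks these motifs. AP-1 was found in 3 of the 12 members (25.0%), the Egr2 intervals 11163 and 41661 bp upstream and the Ier3 interval 49808 bp upstream. Of all listed intervals 39.6% held it, of the gained ones 52.8% and of the lost ones 3.33%. All 3 members with AP-1 were in the low range of control accessibility, where they made up 3 of 6, and 0 of the 6 members in the high range held it. Over all listed intervals the share with AP-1 was 50.4% under 50 control reads and 27.0% at 50 or more, and over the gained ones alone, which 5 of the 6 members in the high range are, it was 52.3% and 54.2%. The words matched were TGAGTCA at Egr2, where the farther interval has 2, and TGACTCA at Ier3.

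The CRE, the κB site and the EGR site were each found in 1 of the 11 gained members (9.09%). The CRE stood in the Ier3 interval 44568 bp upstream, at 35776957 to 35776964. It was in 1.08% of all listed intervals and 1.47% of the gained ones. The κB site stood in the gained Egr3 interval, at 69994996 to 69995005. It was in 7.03% of all listed intervals and 8.67% of the gained ones, close to the share of the gained members. The EGR site, to which the EGR factors themselves bind, stood in the Arc interval at 74672675 to 74672683. It was in 1.29% of all listed intervals and 1.68% of the gained ones. The CArG box was in 0 of the 11 gained members and 1.08% of all gained intervals, and the ETS site (CCGGAA) was in 0 of the 11 and 3.76% of all gained intervals. The PU box (GAGGAA), a core of sites for the macrophage factor PU.1, was in 4 of the 11 (36.4%) and 28.1% of all gained intervals, and the C/EBP motif (TTNNGCAA) was in 2 of the 11 (18.2%) and 11.3% of all gained intervals. Neither Phlda1 interval held any of the 8 motifs, including the most gained member, which says only that these letters are not in the 201 bp.

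**Figure D4:**
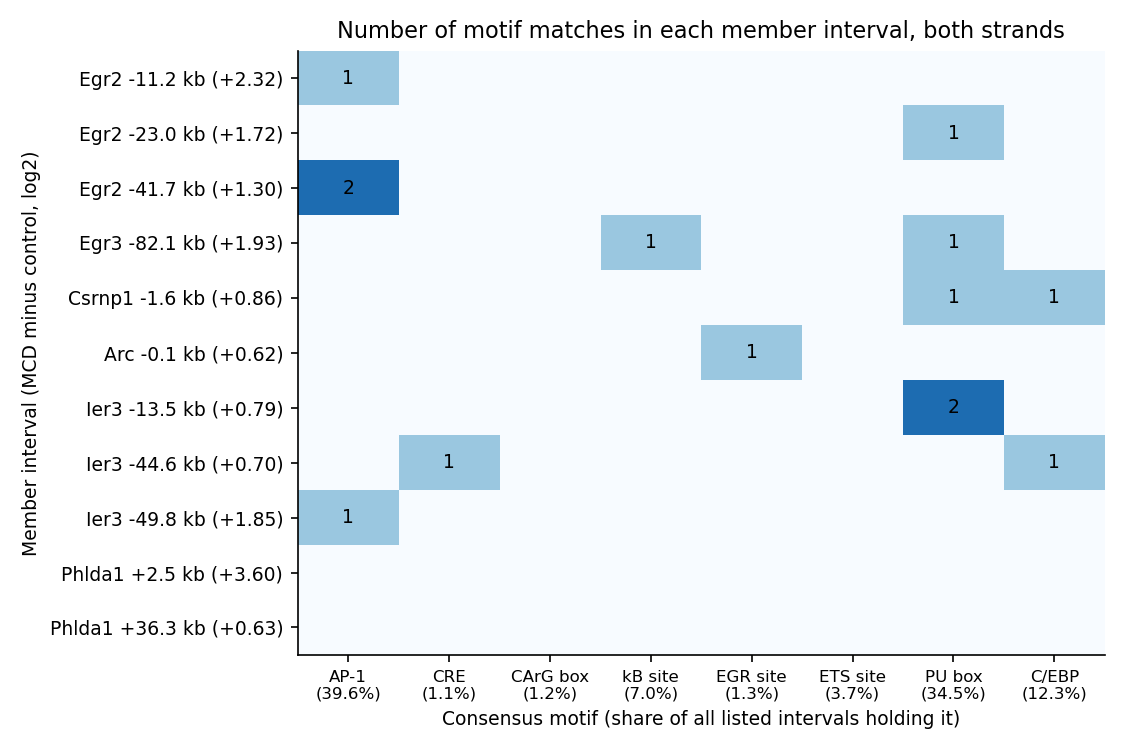
Number of matches to 8 consensus motifs (columns, with the share of all listed intervals that hold the motif in percent) in each of the 11 gained member intervals (rows, with the difference MCD minus control of the log2 means). Matches to AP-1 stand in 3 rows and those to the PU box in 4, and both Phlda1 rows are empty. The column shares cover gained and lost intervals together. Over all gained intervals alone, AP-1 was in 52.8% and the PU box in 28.1%.

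RefSeq promoter sequences (300 bases around a start, GRCm38.p6) were at hand for Egr2, Csrnp1 and Ier3. No listed interval overlapped any of them. The CArG box was in 4 of 5 Egr2 promoter windows, and in 1.63% of all 32851 promoters of the table. These 4 overlap each other in part, start between 67537316 and 67537680 and belong to internal starts. The window that spans the Egr2 TSS used above, 67535249 to 67535548, held none. The Ier3 promoter held a κB site, as did 4.51% of all promoters. A Csrnp1 promoter, that of an internal start, held 2 AP-1 matches, and 7.81% of all promoters held at least 1. The other Csrnp1 windows held no AP-1 match.

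Related genes were taken from lists chosen with earlier results of these data known, so their counts and shares are a description and were not tested. By the same nearest-gene rule, 11.8% of the 20886 genes with a protein-coding transcript had a listed interval, whether or not macrophages express them. Of 8 family relatives of the members (Egr4, Csrnp2, Csrnp3, Phlda2, Phlda3, Ier2, Ier5 and Ier5l), only Ier5 had a listed interval, gained by 0.83 on the log2 scale. Of 9 regulators, 3 had listed intervals. Nab1, a corepressor that binds EGR proteins, had 2 gained intervals, 43 bp and 6021 bp downstream of its TSS, with log2 differences of 0.67 and 1.60. Elk3, an ETS partner of SRF, had 2 gained intervals with differences of 1.10 and 0.61. Creb1, which binds the CRE, had 1 lost interval, with a difference of -0.87. Srf, Elk1, Elk4, Mrtfa, Mrtfb and Nab2 had no row.

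Of 45 other immediate early genes, 22 had at least 1 listed interval, 20 of them a gained and 6 a lost one, beside the 11.8% of protein-coding genes with any. These genes had 66 intervals, of which 49 (74.2%) were gained, a share close to the 73.2% of the whole list. The median difference was 1.14 on the log2 scale, against 1.08 for the 12 member intervals. By gene, the largest difference was 2.87, at Fosl2, a partner of Jun in AP-1, 9396 bp from the TSS. Next came 2.70 for Cebpd, a C/EBP factor, 95919 bp away, and 2.50 for Btg1, which restrains proliferation, 267699 bp away. Dusp5, a phosphatase of ERK, had 2.21 at 21491 bp, and Trib1, a pseudokinase, 2.19 at 9148 bp. Lost intervals were assigned to Jun, Klf4, Btg1, Zfp36l1, Zfp36l2 and Sgk1. Of the 17 lost intervals, 16 lie over 50 kb from the TSS, and the 1 within 50 kb belongs to Sgk1, a kinase gene, with a log2 difference of -0.77. Within 50 kb of a TSS, 32 of 33 intervals of this list and 10 of 11 of the members were gained, against 74.5% of all listed intervals at that distance. This list and the members were both chosen with earlier results of these data known, so the difference in shares was not tested.

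**Figure D5:**
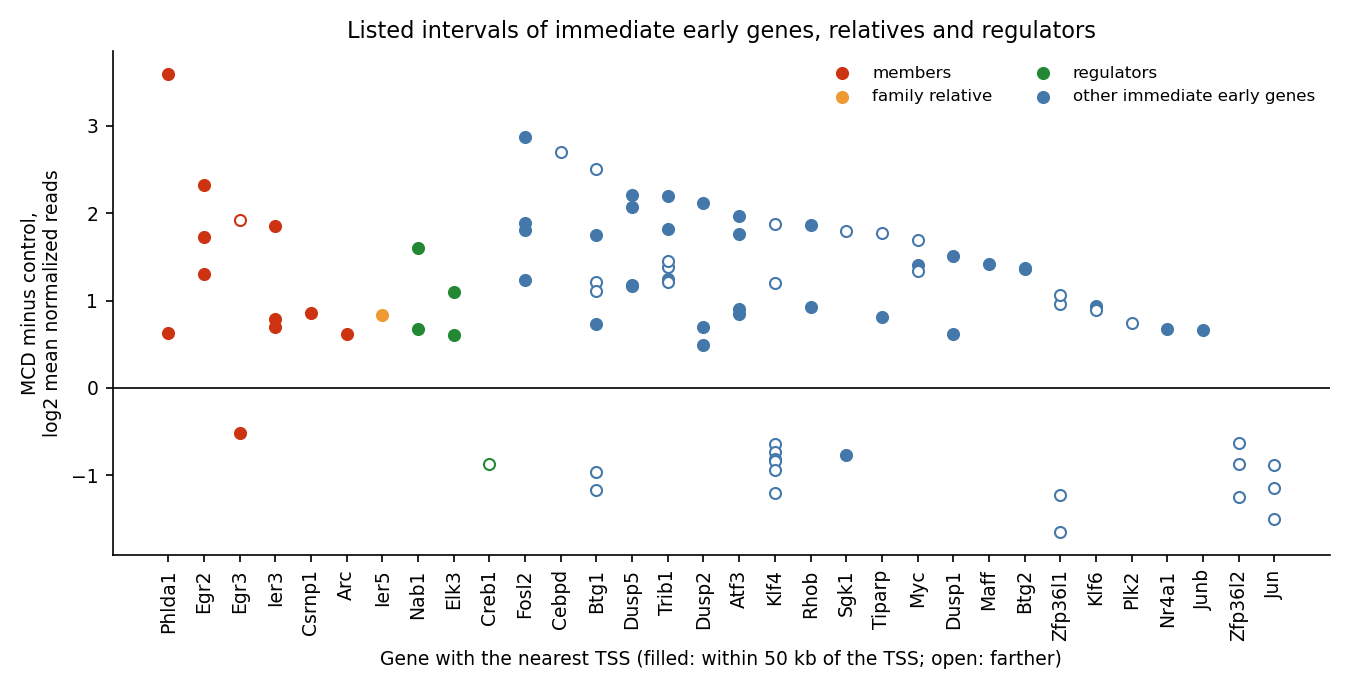
Difference of the means (MCD minus control, log2 normalized reads) of each listed interval (points) by the gene of its nearest TSS, for the members, a family relative, regulators and other immediate early genes. Filled points lie within 50 kb of the TSS and open points farther away. The points below 0 are mostly open, and the filled ones among them belong to Egr3 and Sgk1.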

How the data were processed

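ATAC-seq reads were aligned by the authors to GRCm38 (mm10) with Bowtie2, duplicates were removed with Picard, peaks were called with MACS2, and the conditions were compared in DiffBind with DESeq2 and edgeR. The submitters' processing notes name Bowtie2 2.4.4 and MACS3 3.0.0 instead. The normalization in DiffBind, the handling of the Tn5 offset and the pooling of samples at peak calling are not given in the sources used here. The deposited values used are log2 means of normalized reads per condition. The table also holds the authors' Fold, p value and FDR, which were not used. The paper's RNA-seq values were not used either.

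From these means, differences (MCD minus control) and ratios were computed, and each interval was assigned to the nearest TSS. Intervals differ in how many reads they hold, and the list can hold small differences only where reads are many. Motifs were searched in the RefSeq copy of GRCm38. The sequence of the lost Egr3 interval is not reported here. No test was run, because values per sample were not in hand. The members, lists and motifs were chosen with earlier results of these data known. Named genes are the 7 members, every relative or regulator with a listed interval and, of the other immediate early genes, the 5 with the largest difference and every one with a lost interval. Of the listed names, 4 were matched through synonyms, such as Mkl1 to Mrtfa. Ttc21a, Bin3, Ado, Mroh4, Ddr1, Nap1l1, Gfra3, Pebp4, Cx3cr1, 4833427F10Rik, 4933440J02Rik and Xirp1 are neighbours of the members, chosen for mention once their values were known. Assignment and motif search were tested on simulated data. The scripts ran under pandas 2.3.3, pysam 0.24.0 and numpy 2.4.6 in Python 3.11.15. Depth per sample is unknown from the means.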

Additional observations from a re-analysis of the deposited data

How the results depend on the processing

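No paired analysis was possible because the values used are condition means, and for the same reason leaving out each replicate and a fit per sample were not run. The rule of assignment moved the counts most. With the TSS of protein-coding transcripts alone there were 19 member intervals, 17 of them gained, with a median difference of 1.57 on the log2 scale, since the intervals of the noncoding gene 4933440J02Rik then go to Phlda1 and 1 of Ttc21a to Csrnp1. With the TSS of all annotated transcripts there were 6, all 6 gained, with a median of 0.82, and Egr3 and its lost interval dropped out. Limiting the distance to 50 kb left 11 (10 gained), and taking every interval within 50 kb of a member TSS gave 17 (16 gained). With the most upstream TSS of each gene, chosen after the data were seen, there were 14 (13 gained) and the median stayed at 1.08. Of the 3 intervals within 3 kb of a TSS, 1 was left at 1 kb, 1 with the most upstream TSS and 2 with coding transcripts, the last 2 settings chosen after the data were seen. A difference of at least 1 left 6 gained members. The median was 0.82 with 1 interval per gene and 0.98 with 5 reads added to each mean. AP-1 stayed at 3 members within the central 100 bp, and AP-1 or the CRE stood in 4. Scaling between samples could not be varied, which could move the line between gained and lost.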
